A study of Homo sapiens with 8 samples.

Results

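The regions described here are the stretches of dimethylated lysine 36 on histone H3 (H3K36me2) that lie on chromosomes 16, 17, 19, 20 and 22 in neural progenitor cells. All regions of the 3 deposited H3K36me2 lists with one of these chromosomes as their position were taken, and no measured value entered the choice. They came to 575 regions in the sh1 list, 511 in the sh4 list and 837 in the control (NC) list, or 1923 of 60685 regions in all. The cells were derived from the human embryonic stem cell line H9, which had been infected before differentiation with a lentivirus carrying the KDM2A hairpin sh1 or sh4 or with the control lentivirus NC, and selected with puromycin. H3K36me2 chromatin immunoprecipitation (ChIP) was sequenced in sh1, sh4 and NC cells, and KDM2A ChIP in NC cells, each with an input library. Every group held 1 library, so no value has a spread between replicates, no test between groups was possible, and the intervals given are 95% intervals that cover counting error only. How far the hairpins lowered KDM2A cannot be read from these files.

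KDM2A is a Jumonji-domain demethylase that removes methyl groups from H3K36me2, and its CXXC zinc finger binds unmethylated CpG dinucleotides, which gather at CpG island promoters. H3K36me2 is written mainly by the NSD family of methyltransferases and typically spreads as broad domains over intergenic sequence and gene bodies, while transcribed bodies carry H3K36me3 toward their 3′ ends. Chromosomes rich in genes are also rich in CpG islands, short genes and early-replicating chromatin.

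Promoters are shown first, because they are where KDM2A binding and the genes that kept or lost H3K36me2 can be set side by side. For 18 of the 22 genes chosen below as having lost, kept or gained regions, RefSeq (GRCh38.p14) promoters of 300 bases were at hand, from 250 bases before the annotated start to 50 after it, 26 promoters in all. Of these, 6 overlapped a KDM2A peak of NC cells, beside 19.8% of all promoters on these chromosomes (879 of 4443) and 21.3% on the others. A difference from those shares was not tested. Of the 6, 4 are printed 5′ to 3′ on the gene's own strand, with CG in capitals. MACROD2 and WWOX kept H3K36me2 regions in both hairpin libraries, and ZNRF1 and MARCHF10 had regions in NC alone. Positions are chr20:13995266-13995565 (plus strand) for MACROD2, chr16:78099404-78099703 (plus) for WWOX, chr16:74998774-74999073 (plus) for ZNRF1 and chr17:62806591-62806890 (minus) for MARCHF10.
MACROD2: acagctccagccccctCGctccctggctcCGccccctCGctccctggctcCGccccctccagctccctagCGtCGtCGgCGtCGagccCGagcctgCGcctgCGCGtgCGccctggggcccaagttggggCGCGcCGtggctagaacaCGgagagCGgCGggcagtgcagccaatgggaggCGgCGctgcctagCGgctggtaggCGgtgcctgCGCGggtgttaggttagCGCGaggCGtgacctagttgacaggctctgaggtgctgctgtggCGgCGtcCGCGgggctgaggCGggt
WWOX: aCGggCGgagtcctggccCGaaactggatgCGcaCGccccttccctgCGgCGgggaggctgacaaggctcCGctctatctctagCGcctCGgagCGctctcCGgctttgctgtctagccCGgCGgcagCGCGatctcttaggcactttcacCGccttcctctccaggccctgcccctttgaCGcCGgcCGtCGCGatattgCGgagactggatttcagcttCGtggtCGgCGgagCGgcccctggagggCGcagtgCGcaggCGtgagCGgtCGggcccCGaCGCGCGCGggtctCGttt
ZNRF1: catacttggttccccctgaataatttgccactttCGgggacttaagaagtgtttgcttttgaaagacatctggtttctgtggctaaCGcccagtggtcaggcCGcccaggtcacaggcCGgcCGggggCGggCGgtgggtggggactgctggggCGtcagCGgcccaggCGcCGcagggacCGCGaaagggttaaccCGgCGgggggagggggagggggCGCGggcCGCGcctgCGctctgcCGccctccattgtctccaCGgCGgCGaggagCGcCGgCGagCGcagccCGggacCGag
MARCHF10: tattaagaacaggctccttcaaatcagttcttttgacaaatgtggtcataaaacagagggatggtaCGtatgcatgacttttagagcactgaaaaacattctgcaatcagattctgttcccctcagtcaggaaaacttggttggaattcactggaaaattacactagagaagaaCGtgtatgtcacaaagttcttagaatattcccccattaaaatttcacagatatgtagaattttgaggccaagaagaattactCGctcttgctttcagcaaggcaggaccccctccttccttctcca

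The printed MACROD2 promoter held 34 CG and the WWOX promoter 38, the ZNRF1 promoter 30 and the MARCHF10 promoter only 3. KDM2A peaks over them had deposited folds of 2.08, 1.87, 2.45 and 2.41 in that order, and FDRs of 0.572, 0.693, 0.437 and 0.437, so none passed an FDR of 0.05. The other two promoters with a peak belonged to TTC28, whose gene kept regions (52 CG, fold 3.11, FDR 0.102), and TCF20, whose gene lost them (53 CG, fold 1.92, FDR 0.692). MACROD2, TTC28 and TCF20 each had a further promoter without a peak, with 1, 5 and 16 CG in that order. A KDM2A peak over a promoter thus occurred in both kinds of gene and over promoters both rich and poor in CG. CG, which reads the same on both strands, was present at least once in 99.2% of promoters on these chromosomes and 97.8% of those on the others. The median promoter held 23 CG on these chromosomes and 20 elsewhere.

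The 5 chromosomes were checked against the annotation, because their label speaks of gene richness. Chromosome 19 had 24.9 protein-coding genes per Mb, chromosome 17 14.0, chromosome 22 11.5 and chromosome 16 10.3, the 4 densest of the 23 chromosomes examined. Chromosome 20 had 8.44 genes per Mb and ranked only 7, behind chromosomes 11 (9.61) and 1 (8.94). Together the 5 chromosomes held 4388 of 19821 protein-coding genes on 323 Mb of sequence reached by KDM2A peaks, and the other 18 chromosomes covered 2586.1 Mb.

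The hairpin libraries ask how H3K36me2 differs when KDM2A is knocked down. H3K36me2 regions were sparse on these chromosomes in every library and sparser still in both hairpin libraries. They made up 2.95% of all regions in sh1 (2.72 to 3.20), 2.38% in sh4 (2.18 to 2.59) and 4.25% in NC (3.97 to 4.54). Per Mb there were 1.78 regions in sh1, 1.58 in sh4 and 2.59 in NC, whereas the other chromosomes held 7.32, 8.11 and 7.29 in the same order of libraries. The sh1 count was 0.687 times the NC count (0.617 to 0.765), and the sh4 count was 0.611 times it (0.546 to 0.682). On the other chromosomes the ratio was 1.00 in sh1 (0.984 to 1.02) and 1.11 in sh4 (1.09 to 1.14). Relative to the other chromosomes, the count was therefore 0.684 times NC in sh1 (0.613 to 0.763), and in sh4 it was 0.549 times NC (0.490 to 0.614). Both hairpin lists are read against 1 control library, so they are not independent of each other.

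The direction of the plain count depended on how strictly regions were taken. With a deposited FDR under 1e-10, 89 regions in sh1 and 115 in sh4 remained against 93 in NC, ratios of 0.957 (0.707 to 1.29) and 1.24 (0.933 to 1.64), neither apart from 1 beyond counting error. At that limit the other chromosomes had ratios of 1.54 in sh1 and 2.21 in sh4, so the ratio relative to them was 0.622 in sh1 (0.458 to 0.845) and 0.561 in sh4 (0.421 to 0.748). The shortfall relative to the other chromosomes was thus present at both FDR limits. That in plain counts was present at the authors' limit and not at the stricter one. With folds above the NC median of 1.59 the plain count ratios were 0.824 in sh1 (0.715 to 0.951) and 0.723 in sh4 (0.623 to 0.838).

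Covered length gave the same picture as the count. Regions covered 2.65 Mb in sh1, 2.45 Mb in sh4 and 4.09 Mb in NC, that is 0.820%, 0.757% and 1.27% of the sequence. Mean widths were 4608 bp in sh1, 4787 bp in sh4 and 4892 bp in NC, so the ratios of covered length, 0.647 in sh1 and 0.597 in sh4, were close to those of the counts. At an FDR under 1e-10 these ratios turned to 1.02 and 1.33. Single regions had like widths, with medians of 4000 bp in sh1, 4400 bp in sh4 and 4200 bp in NC. Read counts inside the called regions, which do not measure library depth, were of similar size: the median region held 145.5 IP and 86 input reads in sh1, 151 and 90 in sh4, and 156 and 95 in NC.

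**Figure D1:**
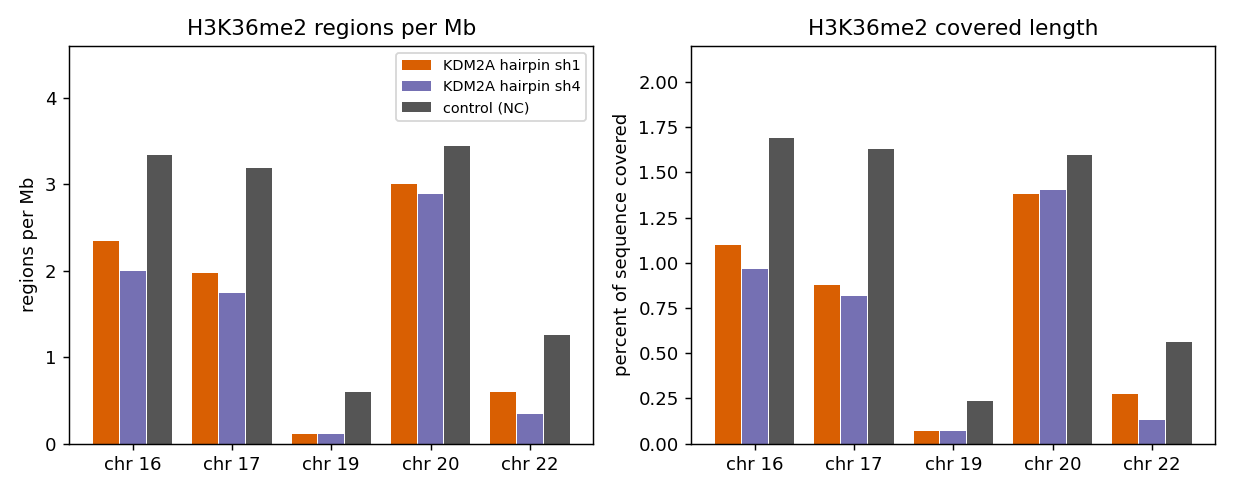
H3K36me2 regions per Mb (left) and percent of sequence covered (right) on chromosomes 16, 17, 19, 20 and 22; each bar is 1 library, with sh1, sh4 and NC from left to right. The hairpin bars lie below the NC bar on every chromosome, in proportion by the least on chromosome 20.

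The 5 chromosomes differed widely among themselves. Chromosome 19 had 6 regions in sh1 and 6 in sh4, against 34 in NC, a ratio of 0.176 in each hairpin (0.0606 to 0.425). Chromosome 22 had 23 in sh1, 13 in sh4 and 48 in NC (ratios 0.479 and 0.271). These were the 2 chromosomes with the fewest regions per Mb in NC, and they also had the lowest ratios in both hairpins. Chromosome 17 followed with 163 regions in sh1, 144 in sh4 and 263 in NC (ratios 0.620 and 0.548), and chromosome 16 with 192, 164 and 273 (ratios 0.703 and 0.601). Chromosome 20 had 191 in sh1, 184 in sh4 and 219 in NC, and its ratios of 0.872 (0.715 to 1.06) and 0.840 (0.687 to 1.03) did not differ from 1 beyond counting error.

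The 4 lowest ratios of all 23 chromosomes were those of chromosomes 19, 22, 17 and 16 in both hairpins. In sh1 chromosome 20 lay within the range of the other 18 chromosomes, which ran between 0.818 on chromosome 10 and 1.11 on chromosome 5. In sh4 that range ran between 0.841 on chromosome 21 and 1.81 on chromosome 1, and chromosome 20 lay at its lower edge with 0.840. Chromosome 1 raises the sh4 ratio of the other chromosomes, and without its part beyond 140 Mb the relative ratio in sh4 was 0.579. Without chromosome 20, whose gene density ranked lowest of the 5, the relative ratio was 0.619 in sh1 and 0.475 in sh4.

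**Figure D2:**
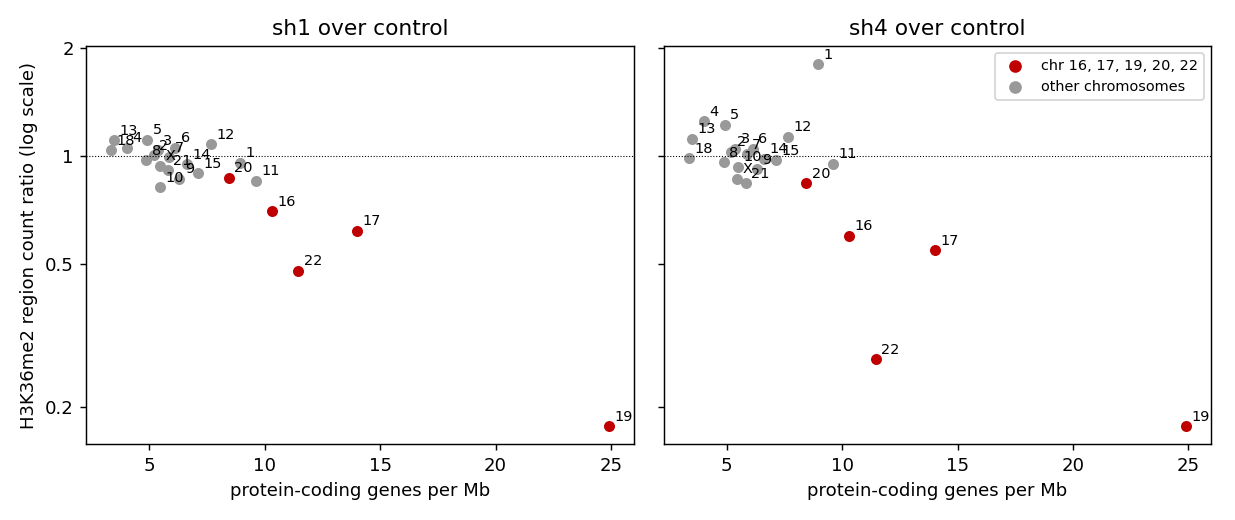
Count of H3K36me2 regions in sh1 (left) and sh4 (right) over NC, on a log scale, against protein-coding genes per Mb; each point is 1 chromosome. Chromosomes 16, 17, 19 and 22 lie lowest in both panels, with chromosome 19 at 0.176, and chromosome 1 lies at 1.81 in sh4.

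On chromosome 19, 1 stretch carried most of what the hairpins covered. It ran at chr19:27345801-27374800 in sh1 (29000 bp, fold 1.15, 1697 IP and 1457 input reads) and at chr19:27344401-27372600 in sh4 (28200 bp, fold 1.15). The nearest protein-coding gene, UQCRFS1, lay 1830520 bp from it in sh1. Input reads per kb over the chromosome 19 regions were 44.3 in sh1 and 44.2 in sh4, against 24.8 in NC, which had no region there. Leaving out this stretch and a neighbouring sh4 region at chr19:27337801-27340800, chromosome 19 kept 5 regions of 9.4 kb in sh1 and 4 of 8.6 kb in sh4, against 34 regions of 134.4 kb in NC. Of the regions left, those of sh1 touched MUC16, KANK2, TDRD12 and the pair RINL and SIRT2, and those of sh4 touched the zinc finger genes ZNF560 and ZNF506.

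The deposited fold, a ratio of IP to input, was slightly higher in the hairpin regions that were called, with medians of 1.67 in sh1, 1.65 in sh4 and 1.60 in NC. Regions with a fold under 1.4 numbered 43 in sh1, 32 in sh4 and 101 in NC, ratios of 0.426 and 0.317. Those between 1.6 and 1.8 numbered 187, 164 and 260 (0.719 and 0.631). Those of 2 or more numbered 68 in sh1, 73 in sh4 and 65 in NC (1.05 and 1.12). The shortfall in plain counts thus lay in regions of low and middle fold. The other chromosomes had a like slope at higher ratios, 0.685 and 0.760 for folds under 1.4 and 1.80 and 2.10 for folds of 2 or more. Relative to them, the ratios here were lower in every band, that of the highest folds included.

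**Figure D3:**
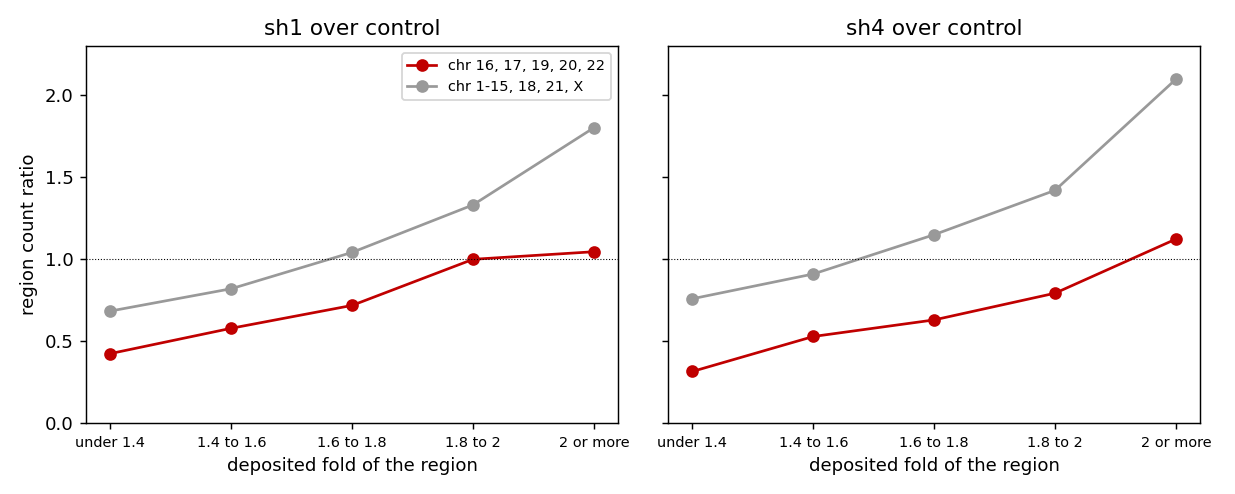
Count of H3K36me2 regions in sh1 (left) and sh4 (right) over NC by the region's deposited fold, on chromosomes 16, 17, 19, 20 and 22 (red) and on chromosomes 1 to 15, 18, 21 and X (grey). Red lies below grey in every band, and climbs in sh4 between 0.317 for folds under 1.4 and 1.12 for folds of 2 or more.

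Within these chromosomes the shortfall followed the local density of genes. The 1-Mb windows were sorted by their number of protein-coding genes. In the 170 with at least 10, 97 regions were listed in sh1, 81 in sh4 and 250 in NC, ratios of 0.388 (0.304 to 0.492) and 0.324 (0.249 to 0.418). Windows with 5 to 9 genes gave ratios of 0.538 and 0.481. In the 99 windows with fewer than 5 genes there were 365, 329 and 377 regions, and the ratios of 0.968 (0.836 to 1.12) and 0.873 (0.750 to 1.01) did not differ from 1 beyond counting error. A gradient of the same direction was present on the other chromosomes. There the ratios were 0.680 in sh1 and 0.674 in sh4 at 10 or more genes. At 5 to 9 genes they were 0.929 and 0.949, and at fewer than 5 they were 1.11 and 1.30. Dividing the ratio here by that of the same class elsewhere gave 0.570 in sh1 and 0.481 in sh4 at 10 or more genes. At fewer than 5 genes it gave 0.870 and 0.674. Gene number inside a class was not matched, and the top class has no upper limit.

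Over the 329 windows of 1 Mb, 149 held fewer regions than NC in both hairpins (45.3%, against 33.1% of windows on all chromosomes). Windows with more regions in both numbered 19 (5.78%, against 22.4%), and 81 held no region in any library. The 5 windows named for the largest deficits lay on chromosomes 16 and 17. The window between 78 and 79 Mb on chromosome 16, filled largely by WWOX, held 9 regions in sh1, 6 in sh4 and 22 in NC. That between 81 and 82 Mb on chromosome 16, with CMIP and PLCG2, held 0, 0 and 8. The window between 57 and 58 Mb on chromosome 17 around MSI2 held 2, 1 and 9. Windows at 75 to 76 Mb on chromosome 16, with ZNRF1 and BCAR1 (0, 4 and 9), and at 86 to 87 Mb, with the forkhead genes FOXF1, FOXC2 and FOXL1 (1, 0 and 6), came next. A window between 50 and 51 Mb on chromosome 20 had the same counts as the last of these (1, 0 and 6).

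Of the 19 windows with more regions in both hairpins, 14 held fewer than 5 protein-coding genes and 2 held 10 or more. Between 14 and 15 Mb on chromosome 20, within MACROD2 and FLRT3, 28 regions were listed in sh1, 20 in sh4 and 7 in NC. Between 11 and 12 Mb on chromosome 20, which holds BTBD3, there were 18, 19 and 10. Between 60 and 61 Mb on chromosome 16, where no protein-coding gene lies, there were 11, 12 and 5. The median window held 9 protein-coding genes where both hairpins had fewer regions, 1 where both had more, and 21 where no library had any.

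Regions of the 3 libraries seldom lay at the same place. Of the 837 NC regions, 60 were overlapped by a sh1 region (7.17%), 44 by a sh4 region (5.26%) and only 7 by both. Over all chromosomes 84.8% of NC regions met no sh1 region and 86.1% met no sh4 region. The 740 overlapped by neither made up 88.4%, against 74.2% of NC regions over all chromosomes. Such shares also depend on how much sequence the hairpin regions cover. They covered 0.820% in sh1 and 0.757% in sh4 here, against 3.54% and 4.24% on the other chromosomes. That dependence was not tested. Of the hairpins' own regions, 59 of 575 in sh1 met a sh4 region (10.3%) and 58 met an NC region (10.1%), while 58 of 511 in sh4 met a sh1 region (11.4%) and 42 an NC region (8.22%). By length, sh1 and NC shared 152.8 kb, which was 5.77% of the sh1 and 3.73% of the NC length. For sh4 and NC it was 110.8 kb, 4.53% of the sh4 and 2.71% of the NC length. The hairpins shared 198.4 kb with each other, 7.49% of the sh1 and 8.11% of the sh4 length, more than either shared with NC although NC covered more sequence. Of this, 26.8 kb lay in the chromosome 19 stretch of high input described above. On the other chromosomes the order was the same. There the hairpins shared 10486.2 kb, against 9685 kb for sh1 and NC and 8718.6 kb for sh4 and NC.

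The widest NC region met by both hairpins overlapped MAF, a bZIP transcription factor gene, at chr16:79529801-79537800 (8000 bp), of which 4800 bp lay in a sh1 region and all 8000 bp in a sh4 region. Of the next 5 by width, 2 lay in MACROD2 and 1 in RALGAPA2, which encodes a Ral GTPase-activating subunit. The widest NC regions of all met no hairpin region. They lay at chr17:65354201-65375800 (21600 bp, 126498 bp from RGS9), chr16:20877401-20899000 (21600 bp, overlapping DCUN1D3) and chr16:72174201-72192600 (18400 bp, overlapping PMFBP1). Their folds of 1.31, 1.21 and 1.42 lay below the NC median of 1.60.

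A few regions stood apart by fold or depth. A single 200-bp region had a fold of 2596 in sh1 at chr17:25389801-25390000, and another had 2392 in sh4 at chr17:24421401-24421600, and they lay 1904114 and 2716789 bp from the nearest protein-coding gene. In NC the highest fold was 56.9 at chr16:46391601-46394200, which sh4 also covered, and the region at chr16:34571401-34572600 had 19.7 in sh4 and 8.69 in NC. In sh1 the region chr20:31051601-31077600, 180064 bp from the defensin gene DEFB115, held 7325 IP and 6056 input reads. It lifted the sh1 input depth over chromosome 20 regions to 29.3 reads per kb, against 21.8 in sh4 and 23.7 in NC.

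The deficit was larger for regions inside genes than for those between them. Regions touching a protein-coding gene numbered 285 in sh1, 233 in sh4 and 464 in NC, ratios of 0.614 (0.528 to 0.713) and 0.502 (0.427 to 0.589). Regions outside genes numbered 290, 278 and 373, ratios of 0.777 (0.665 to 0.909) and 0.745 (0.636 to 0.873). The intervals overlap in sh1 and not in sh4. Protein-coding genes took up 49.9% of this sequence and held 45.9% of the covered length in sh1, 41.9% in sh4 and 58.7% in NC. On the other chromosomes the shares were 41.5%, 39.9% and 44.0%, beside 42.5% of the sequence. By covered length the share in genes on chromosome 19 was 20.6% in sh1, 9.55% in sh4 and 58.3% in NC, on few regions. Chromosome 16 had 61 regions in genes in sh1, 52 in sh4 and 135 in NC, and 131, 112 and 138 outside them. Chromosome 22 went the other way: outside genes it had 1 region in each hairpin and 16 in NC. In sh1 chromosome 20 did so too, with ratios of 0.951 in genes and 0.773 outside, and chromosome 19 had ratios of 0.174 and 0.182.

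Counted by gene, 141 of 4388 protein-coding genes had a region in their body in sh1 (3.21%), 110 in sh4 (2.51%) and 281 in NC (6.40%). The ratios were 0.502 in sh1 (0.407 to 0.616) and 0.391 in sh4 (0.311 to 0.490), against 0.830 and 0.800 on the other chromosomes. In what follows a gene counts as losing its regions where NC lists at least 1 in its body and the hairpin none. Of the 281 genes, 205 lost all regions in sh1 (73.0%, 67.4 to 78.1), and the share over all chromosomes was 48.4%. In sh4 212 lost them (75.4%, 70.0 to 80.4), against 51% over all chromosomes. In both hairpins 180 lost them (64.1%, 58.1 to 69.7), against 36.9%, and 44 kept at least 1 region in both (15.7%, against 37.5%). Genes with no NC region and a region in both hairpins numbered 12, which was 0.292% of the genes without one in NC, against 2.69%. These shares also depend on how many hairpin regions were listed. Per Mb there were 1.78 in sh1 and 1.58 in sh4 here, against 7.32 and 8.11 on the other chromosomes. That dependence was not tested.

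The share of genes that lost their regions in both hairpins was 21 of 23 on chromosome 19, 18 of 27 on chromosome 22, 48 of 72 on chromosome 16, 59 of 96 on chromosome 17 and 34 of 63 on chromosome 20. No gene of chromosome 19 kept regions in both. Longer genes kept them more often: the median length was 64.0 kb for genes that lost regions in both hairpins and 308.9 kb for those that kept them in both. On the other chromosomes these medians were 52.1 and 231.0 kb. The gap to the other chromosomes in the share of genes losing regions was also present among genes of like length. Of NC-marked genes over 100 kb, 41.3% lost regions in both hairpins here and 15.5% elsewhere. For genes of 30 to 100 kb the shares were 82.7% and 53.0%.

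Genes that lost all regions were taken as the 2 per chromosome with the largest covered length in NC. MSI2, which encodes an RNA-binding protein of the Musashi family found in neural progenitors, had 0 kb covered in sh1 and 0 kb in sh4, against 45.8 kb in 4 regions in NC (chr17:57255851-57701581). CMIP, an adaptor protein gene at chr16:81444808-81711762, had 0 and 0 kb against 22.4 kb, and ZNRF1, a ubiquitin ligase gene at chr16:74999024-75110994, 0 and 0 kb against 19.4 kb in NC. MARCHF10, of the membrane-associated RING family, had 17.6 kb in NC and LPIN3, a phosphatidate phosphatase gene, 13.4 kb, or 67.8% of its body. The same holds, at 0 kb in both hairpins, for TCF20, a transcriptional co-regulator (9.8 kb in NC), ARFGEF2, an exchange factor for ARF GTPases (9.4 kb), and CLTCL1, a clathrin heavy chain (8.6 kb). On chromosome 19 the longest were CEP89, a centrosomal protein gene (5.8 kb), and NLRP13, of the NOD-like receptor family (5.4 kb). LPIN3, ARFGEF2, CLTCL1, CEP89 and NLRP13 each had only 1 region in NC, and 88.4% of NC regions here met neither hairpin.

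The kept genes named here had the largest minimum covered length over the 3 libraries, a choice that favours long genes. They were mostly very long. WWOX, an oxidoreductase gene of 1113 kb that spans a common fragile site, had 46.4 kb covered in sh1 and 29.2 kb in sh4, against 152.2 kb in NC, in 12, 6 and 23 regions. MACROD2, an ADP-ribose hydrolase gene of 2058 kb, went the other way with 257.6 kb in sh1 and 200.4 kb in sh4, against 121.4 kb in NC, in 55, 37 and 27 regions. The tetratricopeptide gene TTC28 had 25.4 and 14.4 kb against 38.6 kb, and ANKFN1 18.4 and 22 kb against 34.8 kb. PLCB4, a phospholipase C, had nearly equal lengths of 25.8, 28 and 30.2 kb. FTO, an RNA demethylase, had 24.6, 16.2 and 15.6 kb. CEP112, which encodes a centrosomal protein, had 36 kb in sh1 and 23.5 kb in sh4, against 27.2 kb in NC, so the hairpins lay on both sides of NC. TNRC6B, of the microRNA silencing complex, had 8 and 2.4 kb against 9.2 kb.

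A kept gene rarely kept the same stretches. The 44 genes with regions in all 3 libraries had 828.4 kb covered in sh1, 700.1 kb in sh4 and 1059 kb in NC. Of the NC length in these genes, 73.4 kb lay in a sh1 region (6.93%) and 35 kb in a sh4 region (3.31%). For all NC length on these chromosomes the shares were 3.73% and 2.71%, so the low sharing was not particular to kept genes. In 28 of the 44 genes no NC base was shared with either hairpin, beside 88.4% of all NC regions here that met neither. In WWOX sh1 shared 7.4 kb and sh4 1.6 kb with NC, and the hairpins shared nothing with each other. In MACROD2 sh1 shared 32.2 kb and sh4 13.8 kb with NC, and sh1 and sh4 shared 36.6 kb.

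Gained genes were few and small in covered length. SSH2, a cofilin phosphatase gene, had 10.2 kb in sh1 and 14.4 kb in sh4, with none in NC. The metalloprotease gene ADAMTS18 had 7 and 5.2 kb, BCAS1, a gene of myelinating oligodendrocytes, 4 and 9.6 kb, and ENTHD1 3.2 and 4.6 kb, all with 0 kb in NC. BCAS1 and ENTHD1 each had 3 kb in common between the hairpins, while SSH2 and ADAMTS18 had none.

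**Figure D4:**
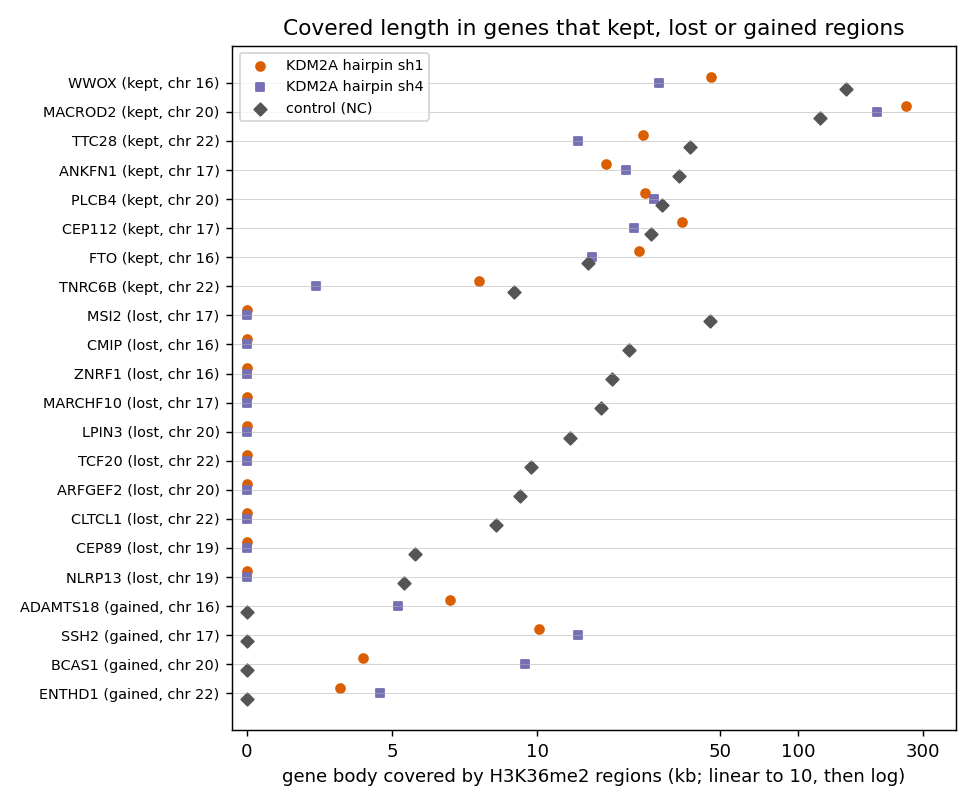
Length of gene body inside H3K36me2 regions (kb, linear to 10 and log beyond) for genes that kept, lost or gained regions, with sh1, sh4 and NC as separate points, 1 library each. MACROD2 has more in both hairpins than in NC, WWOX less, and the 10 lost genes lie at 0 kb in both hairpins.

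Gene groups were read against all genes of the 5 chromosomes. Over all 4388 genes, covered length was lower than NC in both hairpins in 237 (5.40%, against 12.6% of genes on all chromosomes) and higher in both in 24 (0.547%, against 4.69%). Only 375 of them had a region in any library. Long genes had one more often, in NC 9.85% of those of 30 to 100 kb and 42.7% of those over 100 kb. Median gene length was 68.7 kb in the neuronal structure list, 77.5 kb in the adhesion list and 25.8 kb in the MAPK list. The part of length in the group counts was not tested. Of 29 neural transcription factor genes, 1 had a region in sh1, 1 in sh4 and 2 in NC, and both of those were lower in each hairpin. They were TSHZ2, a zinc finger homeobox gene, with 7.8 and 29.2 kb against 33.8 kb, and ZNF536, a repressor of neuronal differentiation, with 0 and 0 against 3.6 kb. Of 34 genes for neuronal structure, channels and synapse, 6 had a region in sh1, 1 in sh4 and 8 in NC, with 7 lower in both and 0 higher in both. The inward rectifier KCNJ16 had 2.8 and 12 kb against 18.4 kb, and GNAO1, the Go alpha subunit, 8.6 and 0 kb against 17 kb. RBFOX2, a splicing factor, had 9.2 kb in sh1 and 0 in sh4, against 2.2 kb in NC, so the hairpins lay on opposite sides. RBFOX1, its relative and the longest gene named here at 2474 kb, had 0 and 0 kb against 6 kb.

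Of 27 genes listed for adhesion and axon guidance, 5 had a region in sh1, 5 in sh4 and 8 in NC. Their summed covered length was 282.6 kb in sh1, 237.4 kb in sh4 and 205.6 kb in NC. Most of it lay in MACROD2 (257.6, 200.4 and 121.4 kb). Without that gene the sum was lower in both hairpins than in NC. Taken by gene, coverage gave a different count, with 5 lower in both and 1, MACROD2, which is itself no adhesion gene, higher in both. The cadherin genes CDH8 (4.6 and 8.6 kb against 31.2 kb) and CDH13 (10 and 4 kb against 19.2 kb) were lower in both hairpins, and CNTNAP4, a neurexin-family gene, had 0 and 15 kb against 12.2 kb. The study's title concerns MAPK signalling. The list taken for it was broad and not limited to members of the kinase cascade. Of its 46 genes, 4 had a region in sh1, 3 in sh4 and 8 in NC, with 7 lower in both and 1 higher in both. The 7 included PRKCA, protein kinase C alpha (22 and 8.8 kb against 79.2 kb), STAT3 (0 and 0 against 11.4 kb) and NF1, a Ras GTPase-activating protein (0 and 6 against 11 kb). The 1 was MAP2K6, the p38 kinase kinase, with 20 and 15.6 kb against 5.8 kb.

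Of 41 genes for H3K36 and other chromatin factors, 2 had a region in sh1, 0 in sh4 and 4 in NC, and those 4 were lower in both hairpins. They included the DNA methyltransferase gene DNMT3B (0 and 0 against 5 kb) and the heterochromatin protein gene CBX1 (0 and 0 against 4.4 kb). NCOR1, a co-repressor, and NCOA3, a co-activator, had 7.4 and 4.27 kb in sh1 and none in sh4 or NC. Most genes of these chromosomes, 4013 of 4388 (91.5%), had no region in any library, and short genes least often had one: in NC 0.276% of those under 10 kb and 2.25% of those of 10 to 30 kb. The families below, made mostly of short genes, are to be read against those shares. Of 318 zinc finger genes, with a median length of 22.5 kb, 0 had a region in sh1, 2 in sh4 and 5 in NC. Among the 5 were ZNF423, ZNF284 and ZNF675, with 0 kb in both hairpins and 5.8, 4.4 and 4.4 kb in NC. ZNF423 is itself 372 kb long, so the shares for short genes do not apply to it. Keratin genes (62 members) had 1 region-bearing gene in NC, KRT15, and the CEACAM and pregnancy-specific glycoprotein genes (22) had 1, CEACAM19, with none in either hairpin. The HOXB cluster (10 genes), ribosomal proteins (23), kallikreins (15), leukocyte receptors (31), cytochromes P450 (14), metallothioneins (11), CCL chemokines (19) and olfactory receptors (36) had no region in any library.

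KDM2A was mapped in NC cells alone, so it gives the same 5 chromosomes' binding without a KDM2A hairpin. The KDM2A list held 69895 peaks there, 216.4 per Mb, against 167.3 per Mb on the other chromosomes, a ratio of 1.29. By all peaks the 5 chromosomes took the top 5 places of 23: chromosome 19 had 250.4 per Mb, chromosome 22 218.0, chromosome 20 213.1, chromosome 16 210.2 and chromosome 17 201.0. The others ran between 141.2 on chromosome 4 and 187.8 on chromosome 10. The list was not limited by FDR, and with an FDR under 0.05 2363 peaks were left, 7.32 per Mb against 5.06 elsewhere, a ratio of 1.44. At that limit chromosome 22 had 9.03 per Mb, chromosome 19 8.85, chromosome 16 6.75, chromosome 20 6.71 and chromosome 17 6.49, with chromosome 21 (7.85) between them.

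**Figure D5:**
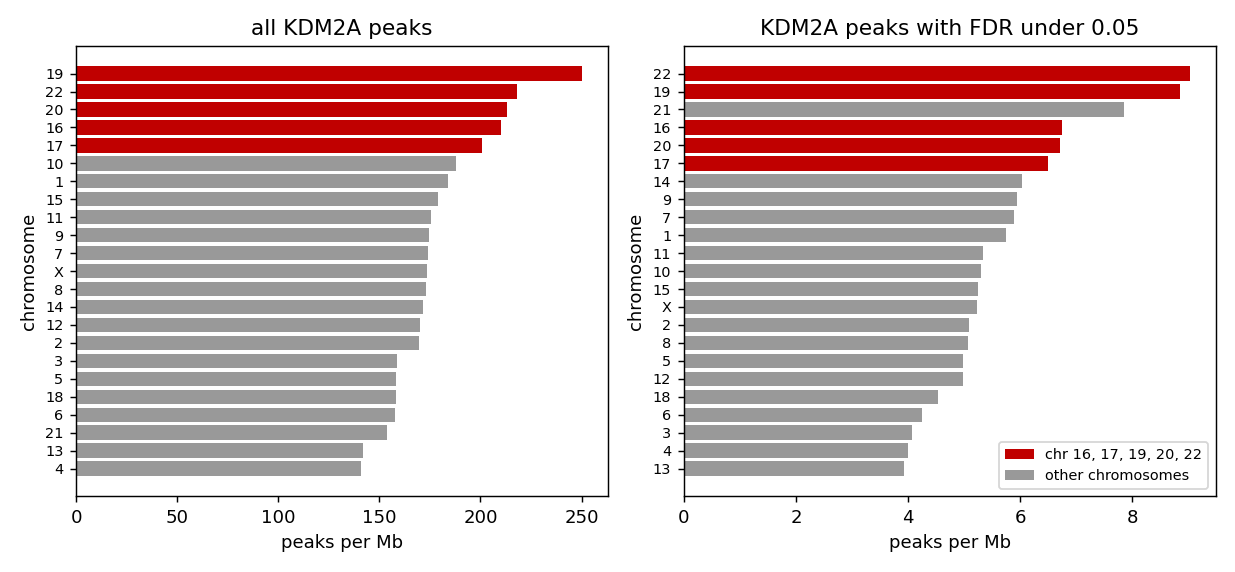
KDM2A peaks per Mb in NC cells for each chromosome, all peaks (left) and peaks with FDR under 0.05 (right), 1 library. The 5 chromosomes in red take the top 5 places by all peaks, with chromosome 19 at 250.4, and 5 of the top 6 at the FDR limit, where chromosome 21 joins them.

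Part of the stronger peaks sat in few places. On chromosome 22, 24.9% of peaks that passed the FDR limit (86 of 346) sat in 3 windows of 1 Mb, with 33 between 15 and 16 Mb and 29 between 12 and 13 Mb, where the median window held 7. On chromosome 20 the window between 29 and 30 Mb held 33. Single peaks were of the usual size, with a median fold of 2.33, a median pileup of 8 and a median width of 219 bp, against 214 bp elsewhere. Peaks of highest fold near a gene end were at ZC3H7A on chromosome 16 (fold 4.80), XYLT2 on 17 (5.35), KHSRP on 19 (8.45), PHACTR3 on 20 (4.64) and TMEM191B on 22 (4.10).

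Gene starts took a larger share of the KDM2A peaks here, 4.48% within 2 kb of a start against 2.89% elsewhere, but there were also more starts. Among peaks with an FDR under 0.05 the shares were 3.60% and 3.36%. Per 100 genes with a known start there were 94.6 peaks near starts on these chromosomes and 94.2 on the others, where chromosome 8 was not used. A peak lay within 2 kb of the start in 64.3% of genes here and 64.9% elsewhere. The higher density was thus not seen as more binding per start. By CG content, promoters with 25 or more CG overlapped a KDM2A peak in 20.7% of cases here and 26.5% elsewhere, and those with fewer than 5 in 15.8% and 14.1%.

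In the list not limited by FDR, a peak lay at the start of 77 of 126 genes that lost regions in both hairpins (61.1%) and 23 of 35 that kept them (65.7%), beside 64.3% of all genes here. With an FDR under 0.05, 2 of the 126 and 1 of the 35 had one, too few to compare. Over gene bodies the peak density was 22.7 per 100 kb in genes that lost regions, 16.1 in those that kept them, 13.3 in those that gained them and 22.9 in those with no region in any library. Windows of 1 Mb followed the same order, with a median of 222 KDM2A peaks where both hairpins had fewer regions, 144 where both had more and 233 where no library had any. Gene density moves with these values, and its part in them was not tested. Inside the H3K36me2 regions themselves there were 195.1 KDM2A peaks per Mb in sh1, 166.4 in sh4 and 217.8 in NC. On the other chromosomes there were 193.0, 165.9 and 203.5. Over all sequence the densities were 216.4 per Mb here and 167.3 elsewhere. Regions here thus lay near that density in NC and below it in both hairpins. Elsewhere they lay above it in NC and sh1 and near it in sh4.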

How the data were processed

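Peak lists of 4 ChIP libraries were used, and the 4 inputs only through them. Tools listed in the submitters' processing notes, without their roles, are SICER, MACS2 and Bowtie 1.1.2. Builds given there are hg38 and GRCh38. In the deposited H3K36me2 lists (200 bp grid, smallest gap 800 bp, all FDR under 1e-05) the fold is a linear ratio, p-values and FDRs are the authors' own, and the score equals 100 times the log2 fold, capped. The KDM2A list has the authors' fold ratio, p-values, FDRs up to 0.869 and a pileup signal of 5 to 235. IP and input counts of H3K36me2 regions were recovered from the deposited fold and p-value, and 100% came within 0.01 (IP) and 0.05 (input) of whole numbers. Regions whose p-value was too small to invert have no counts. The recovery was tested on simulated data. No library totals were at hand, so for KDM2A only the pileup speaks of depth.

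Genes were 19821 protein-coding RefSeq genes (GRCh38.p14) on chromosomes 1 to 22 and X, of which 15813 had a start; 153 not on primary sequence were left out. Sequence length was that of 100 kb windows with at least 1 KDM2A peak. Ratios have exact binomial intervals, shares exact Clopper-Pearson ones, relative ratios a conditional odds ratio interval (Python 3.11.15, scipy 1.17.1). Intervals treat regions as independent, which neighbouring regions are not.

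Named genes were, per chromosome, the 2 lost and 2 kept with the longest coverage and 1 gained, up to 4 per list of 16, and per chromosome the KDM2A peak of highest fold within 2 kb of a gene end. Named windows were 5 with fewer and 3 with more regions. Members and lists were chosen with earlier results of these data known.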

Additional observations from a re-analysis of the deposited data

How the results depend on the processing

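Ratios below are hairpin over NC on chromosomes 16, 17, 19, 20 and 22, sh1 before sh4. With folds above the NC median of 1.59 the count ratios were 0.824 and 0.723, the covered-length ratios 0.881 and 0.839 and the ratios of genes with a region 0.671 and 0.540. With FDR under 1e-10 the count ratios were 0.957 and 1.24 and the covered-length ratios 1.02 and 1.33, so the direction turned for both hairpins by length and for sh4 by count. Leaving out each chromosome in turn gave count ratios of 0.621 to 0.718 and 0.529 to 0.639, covered-length ratios of 0.575 to 0.700 and 0.504 to 0.645, and ratios relative to the other chromosomes of 0.619 to 0.715 and 0.475 to 0.575, the lowest always without chromosome 20. Relative ratios within a class of windows by gene count, chosen after seeing the data, were 0.570 and 0.481 at 10 or more genes. Under 5 genes they were 0.870 and 0.674. Gene number inside a class was not matched. Under the other settings relative ratios kept their side of 1. With the same number of regions per library, those of highest fold, the sh4 covered-length ratio was 0.522. The percent of genes losing all regions in both hairpins was 65.0 to 68.5 under its 3 alternatives. KDM2A density relative to the other chromosomes was 1.26 over first-to-last-peak length, 1.23 at folds of at least 3 and 1.25 to 1.32 with a chromosome left out, and 1.38 to 1.50 for peaks with FDR under 0.05. The causes were not tested. No paired analysis was possible because each group holds 1 library. What the depth limits was not measured, since library totals were not at hand.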
